A study of Mus musculus with 4 samples.

Results

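The RNA of 10 small secreted proteins of the CC and CXC chemokine families was followed in lumbar spinal cord. They were Ccl2, Ccl3, Ccl4, Ccl5, Ccl6, Ccl9, Ccl12, Ccl17, Cxcl10 and Cxcl16, taken by gene name from the expression table, where they made up 10 of 18674 names. Each had a single row among the 23750 rows of the table. The cord came from wild type mice (WT) and from G93A mice, which carry a human mutant SOD1 transgene and are used as a model of amyotrophic lateral sclerosis (ALS). Spermidine (SD), a natural polyamine, was injected intraperitoneally at 5 mg/kg. The sample labels of these libraries give 4 injections per week for 30 days, whereas another frequency is given for the mice of the motor tests. Vehicle animals received PBS by the sample labels and saline by the description of the injections. Tissue was taken at 100 days of age.

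There were 4 libraries, 1 for each condition, named WT vehicle and WT + SD for the wild type and G93A vehicle and G93A + SD for the transgenic mice. Where values of several libraries are listed, WT comes before G93A and, within a genotype, vehicle before SD. The G93A line was the high-expressing H1 line on a mixed B6/SJL background, males were used in the treatment studies, and the number of animals behind a library was not given in the sources used here. No mouse carrying a wild type human SOD1 transgene was among the samples, so that mutant SOD1 and the presence of any human SOD1 transgene cannot be told apart. With 1 library per condition there was no replicate error and no test. A gene is therefore called higher or lower where its RPKM (reads on a transcript divided by its length in kilobases and by library size) differed at least 1.5-fold, and every such call compares 2 libraries, not 2 populations of mice. The estimated depth was 36800000 to 38600000 read pairs per library. No measure apart from the results themselves checked the genotype labels. Of 12 microglial markers, which are among these results, 11 were called higher in both G93A libraries than in the WT library of the same treatment. Of all names 20.3% were called higher under vehicle and 23.2% under SD. The transgene was not analysed here, and no gene in the table checks the SD label. The neuronal marker Snap25 was at 661 RPKM or more and the astrocyte marker Gfap at 386 RPKM or more in every library.

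Chemokines guide leukocytes along a concentration gradient by binding G protein-coupled receptors on their surface. The CC and CXC families are named after the spacing of conserved cysteines. In the nervous system microglia, astrocytes, endothelial cells and infiltrating leukocytes can all make them, and many are switched on by NF-kappaB, a transcription factor of inflammation, or by interferons. The RNA measured here came from whole tissue, in which a larger number of cells of a type and more RNA per cell cannot be told apart.

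All chemokines of the group but Ccl17 were higher in G93A cord. In G93A vehicle against WT vehicle 9 of the 10 were called higher and 1, Ccl17, was called lower. Among all names 20.3% were called higher and 10.3% lower. In G93A + SD against WT + SD the same 9 chemokines were called higher and 0 were called lower, against 23.2% and 12.5% of all names. The summed level of the 10 was 6.01 and 5.23 RPKM in WT and 53.8 and 57.2 RPKM in G93A. The sum was thus 8.95-fold higher in G93A under vehicle and 10.9-fold higher under SD. The median fold of the 10 was 8.11 and 16.1, where the median over all names was 1.04 and 1.05.

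**Figure D1:**
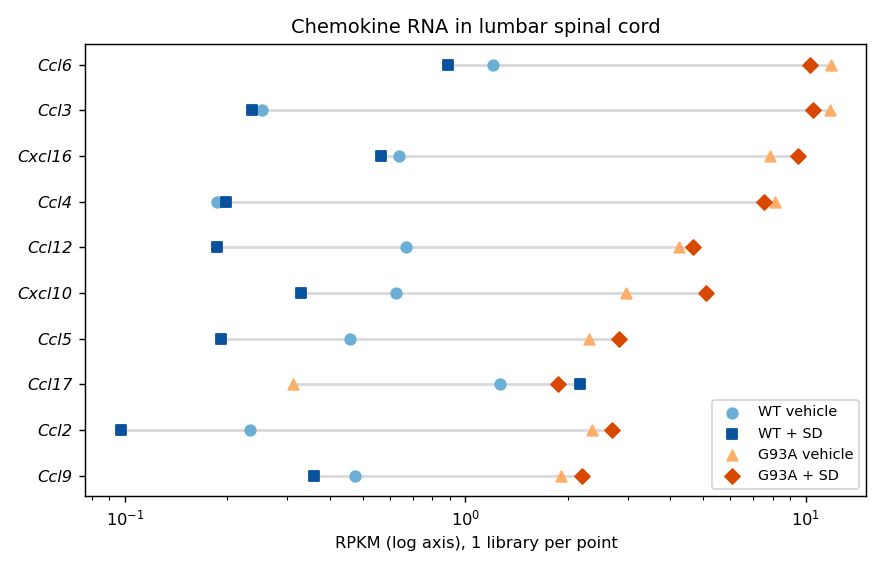
Level of each of the 10 chemokines in RPKM on a log axis, with 1 point per library and no error bar because each condition has 1 library. For 9 chemokines both G93A points lie above both WT points, and for Ccl17 the G93A vehicle point, at 0.311 RPKM, lies below the other 3.

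Ccl3 and Ccl4, also called MIP-1alpha and MIP-1beta, are closely related chemokines of activated myeloid cells, and Ccl3 binds Ccr1. Ccl3 (GRCm38 chr11:83647844-83649355, minus strand) was measured at 0.253 and 0.237 RPKM in WT and at 11.8 and 10.5 RPKM in G93A. It was 46.6-fold higher in G93A under vehicle and 44.4-fold higher under SD. Its WT levels rested on an estimated 7.13 and 6.94 read pairs, so that the size of these folds is imprecise, while 343 and 311 read pairs stood behind the G93A levels. Ccl4 lies next to it on the opposite strand (chr11:83662584-83664683) and was measured at 0.186 and 0.197 RPKM in WT and at 8.11 and 7.56 RPKM in G93A. Its folds were 43.6 under vehicle and 38.3 under SD, on 4.52 and 4.99 read pairs in the WT libraries. These were the highest folds of the group in both genotype comparisons. A fold of at least 10 was reached by 4.33% of all names under vehicle and by 5.15% under SD. The ratio of Ccl3 to Ccl4, 2 levels per length, was 1.36, 1.20, 1.45 and 1.39 in the 4 libraries, the WT ratios resting on the few read pairs given above. The span that RefSeq gives for the whole Ccl4 gene, chr11:83648624-83664683, reaches into Ccl3 on the other strand, and without strand in the counting reads from such an overlap cannot be told apart. Between the G93A libraries both differed by less than 1.5-fold.

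Promoter sequence of Ccl3 is shown here with those of Ccl9, Ccl12, Cxcl10 and Ccl17, which are described further on, because each held a match to a motif searched. The window of Ccl6 held none and is not printed. Each run is the 250 bases before the RefSeq transcription start, 5′ to 3′ on the strand of the gene, from RefSeq on GRCm38.p6, which gave a promoter for 6 of the 10 chemokines. Ccl3 is read from chr11:83649379-83649628 on the minus strand, Ccl9 from chr11:83578637-83578886 on the minus strand, Ccl12 from chr11:82101595-82101844 on the plus strand, Cxcl10 from chr5:92348890-92349139 on the minus strand and Ccl17 from chr8:94810203-94810452 on the plus strand. Capitals mark matches, on either strand, to the kappaB consensus, the interferon response letters (GAAA, any 2 bases, GAAA), the TATA box TATAAA, the AP-1 letters TGANTCA and the PU.1 core GAGGAA, PU.1 being a myeloid transcription factor.
Ccl3: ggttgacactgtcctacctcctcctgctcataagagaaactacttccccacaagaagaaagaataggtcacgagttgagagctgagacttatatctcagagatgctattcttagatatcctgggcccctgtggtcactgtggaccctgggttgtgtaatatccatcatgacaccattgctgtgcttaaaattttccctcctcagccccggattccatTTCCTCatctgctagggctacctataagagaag
Ccl9: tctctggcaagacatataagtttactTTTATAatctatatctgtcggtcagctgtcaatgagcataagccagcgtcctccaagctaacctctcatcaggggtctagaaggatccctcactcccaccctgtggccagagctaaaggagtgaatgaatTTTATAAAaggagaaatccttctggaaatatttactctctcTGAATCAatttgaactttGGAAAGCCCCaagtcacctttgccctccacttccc
Ccl12: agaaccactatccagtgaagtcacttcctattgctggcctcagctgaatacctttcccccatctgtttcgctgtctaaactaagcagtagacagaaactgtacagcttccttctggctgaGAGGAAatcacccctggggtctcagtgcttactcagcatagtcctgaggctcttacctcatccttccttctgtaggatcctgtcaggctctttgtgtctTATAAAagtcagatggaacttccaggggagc
Cxcl10: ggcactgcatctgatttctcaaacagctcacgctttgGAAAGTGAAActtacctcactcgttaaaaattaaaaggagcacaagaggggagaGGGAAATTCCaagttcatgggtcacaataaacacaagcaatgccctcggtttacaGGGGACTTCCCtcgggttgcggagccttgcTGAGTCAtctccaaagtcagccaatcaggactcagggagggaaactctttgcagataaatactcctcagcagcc
Ccl17: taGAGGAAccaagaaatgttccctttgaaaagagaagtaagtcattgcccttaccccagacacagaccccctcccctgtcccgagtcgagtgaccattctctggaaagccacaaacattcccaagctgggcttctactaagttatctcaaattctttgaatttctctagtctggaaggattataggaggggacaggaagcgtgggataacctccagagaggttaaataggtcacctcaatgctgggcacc
Cxcl10 held 3 kappaB matches, 2 of them overlapping, at 159 to 150, 104 to 95 and 103 to 94 bases before the start. It also held 1 interferon response match at 213 to 204 bases and 1 AP-1 match at 74 to 68 bases before the start. Ccl9 held 1 kappaB match at 35 to 26 bases, 1 AP-1 match at 53 to 47 bases and 3 TATA box matches, 2 of them overlapping, at 224 to 219, 94 to 89 and 92 to 87 bases before the start. Ccl12 held a TATA box at 31 to 26 bases and a PU.1 core at 130 to 125 bases before the start. Ccl3 and Ccl17 each held 1 PU.1 core, at 33 to 28 and at 248 to 243 bases. In 32851 promoter windows of the same kind the kappaB consensus was found in 7.25%, the interferon letters in 2.98%, the TATA box in 12.4%, the AP-1 letters in 6.75% and the PU.1 core in 23.3%. A match describes letters in this window and is not a measured binding site.

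Ccl6 and Ccl9 are CC chemokines of rodents that act on Ccr1. Ccl6 (chr11:83587882-83593087, minus strand) had the highest mean level of the group and was measured at 1.20 and 0.890 RPKM in WT and at 11.9 and 10.3 RPKM in G93A. Both G93A libraries stood well above both WT libraries, by 9.87-fold under vehicle and 11.6-fold under SD, on at least 49.0 estimated read pairs in every library. Ccl9 (chr11:83572919-83578636, minus strand) was measured at 0.474 and 0.359 RPKM in WT and at 1.91 and 2.21 RPKM in G93A and had lower folds, 4.03 and 6.15. Of its 53-base windows, the read length, 1.62% also occurred in transcripts of other genes, and for the other 9 chemokines none did. The search did not include the reverse strand, so it could not find a gene overlapping a chemokine on the opposite strand. Between SD and vehicle neither gene was called in either genotype.

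Ccl2, or MCP-1, attracts monocytes through Ccr2, and Ccl12, MCP-5, is a mouse ligand of the same receptor. Ccl2 (chr11:82035571-82037453, plus strand) was measured at 0.233 and 0.0973 RPKM in WT and at 2.36 and 2.69 RPKM in G93A. Ccl12 (chr11:82101845-82103400, plus strand), the higher of the pair, was measured at 0.670 and 0.187 RPKM in WT and at 4.26 and 4.66 RPKM in G93A. The annotated gene Gm17268 overlaps Ccl2 on the other strand and was not analysed here. Ccl2 and Ccl12 both had their lowest level in WT + SD and similar levels in the 2 G93A libraries. Ccl2 was 10.1-fold higher under vehicle and 27.7-fold higher under SD, and Ccl12 was 6.36-fold and 25.0-fold higher. The larger folds under SD came with the lower WT + SD levels, which rested on an estimated 3.03 read pairs for Ccl2 and 3.84 for Ccl12, the 2 lowest estimates behind any of the 40 values.

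Ccl5, or RANTES, is made by T cells among others and binds Ccr1. It (chr11:83525778-83530518, minus strand) was measured at 0.460 and 0.192 RPKM in WT and at 2.31 and 2.82 RPKM in G93A. It followed the order of Ccl2 and Ccl12, with WT + SD lowest and G93A + SD highest, and its folds were 5.03 under vehicle and 14.7 under SD. Its WT levels rested on an estimated 9.01 and 3.91 read pairs, so that their order and the size of these folds are imprecise.

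Cxcl10, or IP-10, is an interferon-induced chemokine for T cells that carry Cxcr3. It (chr5:92346638-92348889, minus strand) was measured at 0.626 and 0.330 RPKM in WT and at 2.97 and 5.11 RPKM in G93A, on an estimated 25.2, 13.8, 123 and 216 read pairs. It was 4.74-fold higher in G93A under vehicle and 15.5-fold higher under SD. The gene lies inside Art3, which is on the other strand and was measured at 5.68, 4.11, 5.73 and 5.27 RPKM. The counting was not stated to use strand, so that reads from the 2 genes cannot be told apart where they overlap.

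Cxcl16 is made as a membrane-bound protein, is released by the protease Adam10 and binds Cxcr6. It (chr11:70453983-70459984, minus strand) was measured at 0.638 and 0.567 RPKM in WT and at 7.87 and 9.52 RPKM in G93A. Its folds were 12.3 and 16.8, on 58.5 to 992 estimated read pairs. Zmynd15 overlaps it on the other strand and moved with it, at 0.123, 0.0730, 0.757 and 0.844 RPKM. Without strand in the counting, part of the Zmynd15 signal and part of the Cxcl16 signal cannot be told apart, although Cxcl16 was the higher by far in every library.

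Ccl17, or TARC, is made by dendritic cells among others and binds Ccr4, which was not analysed here. It (chr8:94810453-94812036, plus strand) was measured at 1.26 and 2.18 RPKM in WT and at 0.311 and 1.88 RPKM in G93A. The G93A vehicle library stood apart from the other 3, with an estimated 6.07 read pairs against 23.9, 42.8 and 37.3. Under vehicle Ccl17 was 4.06-fold lower in G93A than in WT, and within G93A it was 6.04-fold higher with SD than without. Both comparisons use the same G93A vehicle library and are not independent of each other. In G93A + SD against WT + SD the fold was 0.863, which is not a call. A level in G93A vehicle at least 1.5-fold below each other library was seen for 1.95% of all names. Of the 5 dendritic cell markers 2 were called higher (Siglech and Xcr1) and 2 lower (Flt3 and Clec9a) in G93A vehicle than in WT vehicle. The shares of all names were 20.3% and 10.3%. Of these markers 2 had means of at most 0.0677 RPKM, among them Xcr1. Xcr1 was listed at 0 in WT vehicle and was at 0.0286 RPKM in G93A vehicle, on an estimated 4.84 read pairs. The sum of the 5 markers lay between 10.9 and 12.3 RPKM in the 4 libraries, and the part of such cells in the Ccl17 values was not tested. Ccl22, its neighbour on the chromosome and the other ligand of Ccr4, was measured at 0.414, 0.245, 0.304 and 0.453 RPKM.

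**Figure D2:**
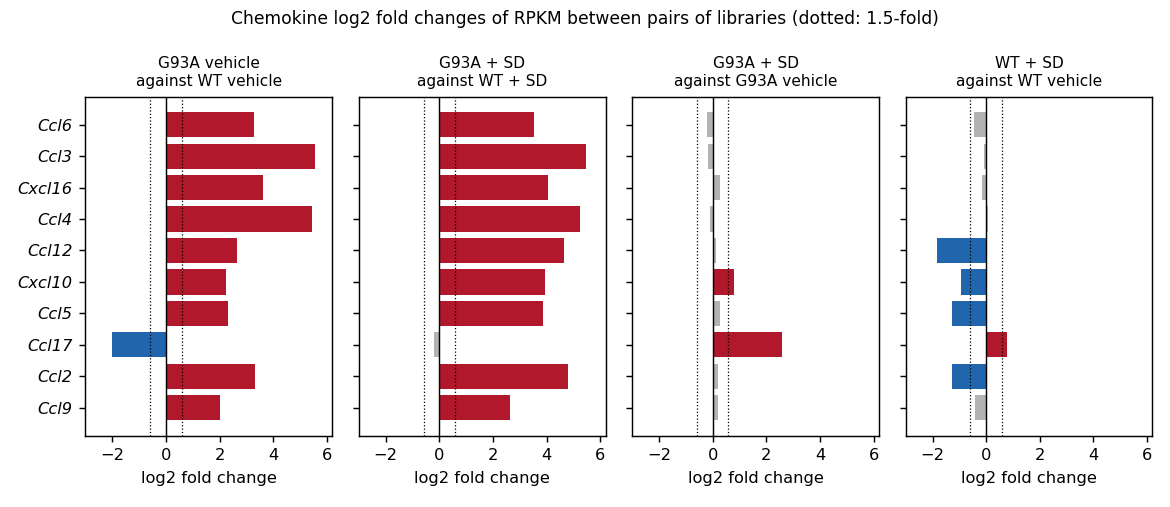
Log2 fold change of each chemokine as a bar, in the 2 genotype comparisons and the 2 SD comparisons, with dotted lines at 1.5-fold, calls in red (higher) or blue (lower), the rest in grey, and no error bars because each condition has 1 library. Ccl3 and Ccl4 lie highest in both genotype comparisons, and Ccl17 is the only chemokine below the lower line under vehicle.

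Counted over both treatments, 9 of the 10 chemokines had both G93A libraries above both WT libraries, against 39.7% of all names, and in those 9 the gap was at least 1.5-fold, against 13.1% of all names. The composition of the group changed as well as its sum. Ccl17 made up 21.02% of the summed RPKM in WT vehicle and 41.6% in WT + SD, but 0.578% in G93A vehicle and 3.28% in G93A + SD. It ranked 1st in both WT libraries and 10th in both G93A libraries. Ccl3 made up 4.21% and 4.53% of the sum in the WT libraries and 21.9% and 18.4% in the G93A libraries. Ccl6 held a similar share throughout, between 17.0% and 22.1%. Ccl3, Ccl4, Ccl6 and Cxcl16 together accounted for 38.0% and 36.1% in the WT libraries and 73.7% and 66.2% in the G93A libraries. Without Ccl17, the other 9 summed to 4.74, 3.06, 53.4 and 55.4 RPKM.

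**Figure D3:**
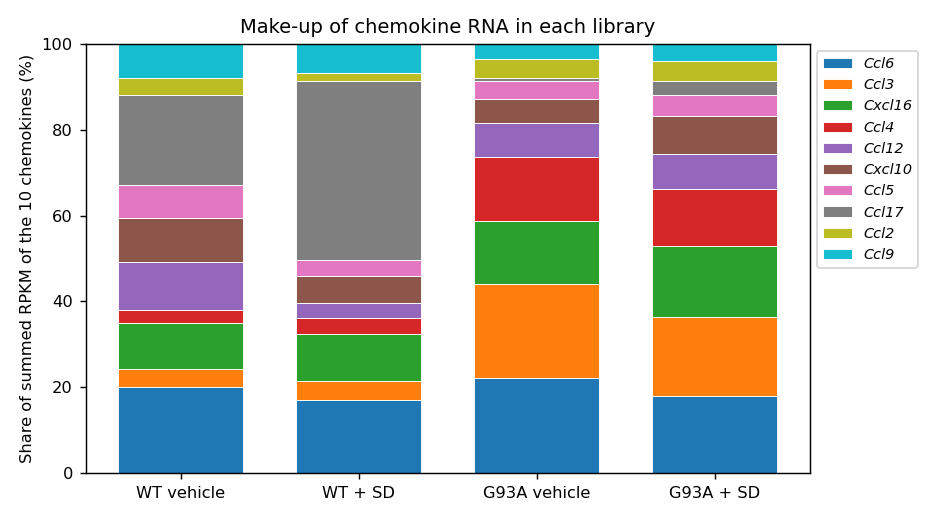
Share of the summed RPKM of the 10 chemokines taken by each of them, in percent, with 1 stacked bar per library. Ccl17 takes 21.02% and 41.6% of the WT bars and 0.578% and 3.28% of the G93A bars, while Ccl3 takes 4.21% and 4.53% of the WT bars and 21.9% and 18.4% of the G93A bars.

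Fewer of the 10 were called with SD than between genotypes, and those called were higher in G93A and, but for Ccl17, lower in WT. In G93A + SD against G93A vehicle 2 of the 10, Ccl17 and Cxcl10, were called higher and 0 lower, against 8.71% and 7.31% of all names. The 8 others ranged from 0.865-fold for Ccl6 to 1.22-fold for Ccl5. In WT + SD against WT vehicle 4 were called lower and 1, Ccl17, higher, against 8.55% lower and 7.18% higher among all names. The 4 were Ccl12, 3.59-fold lower, Ccl2, 2.40-fold lower, Ccl5, 2.39-fold lower, and Cxcl10, 1.90-fold lower. All 4 had an estimated 13.8 read pairs or fewer in WT + SD, and of the 4 only Cxcl10 had at least 20 in WT vehicle. By any amount, 8 of the 10 were lower with SD in WT, as were 45.9% of all names, and 7 were higher with SD in G93A, as were 51.3% of all names. Cxcl10 was called in opposite directions in the 2 genotypes, as were 2.3% of all names in the same directions.

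**Figure D4:**
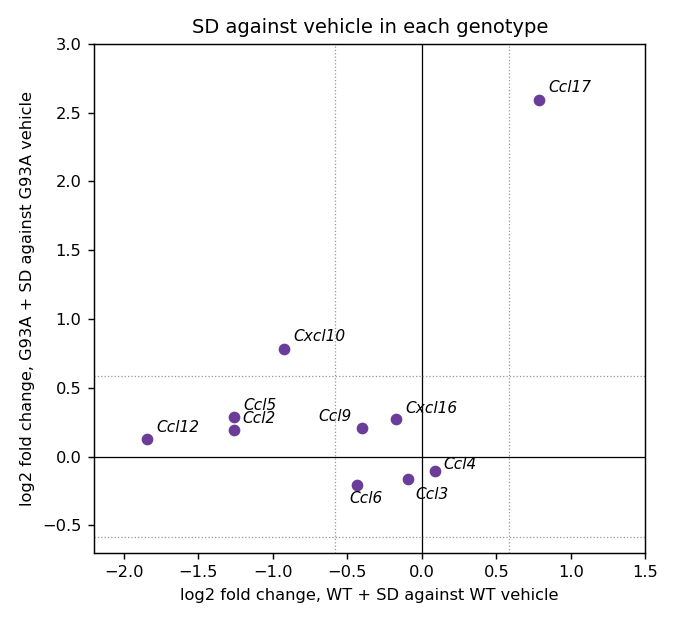
Log2 fold change with SD in G93A (vertical axis) against that in WT (horizontal axis), with 1 point per chemokine and dotted lines at 1.5-fold. Ccl17 lies upper right at 2.59 in G93A and 0.79 in WT, and Cxcl10 lies upper left at 0.78 and -0.92.

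Microglial markers moved with the chemokines. The 12 markers summed to 197 and 176 RPKM in WT and to 1233 and 1310 RPKM in G93A, and their part in the chemokine values was not tested. Their folds ranged from 1.05 to 14.4 under vehicle, with a median of 6.24, and from 1.21 to 19.1 under SD, with a median of 7.27. With SD none of the 12 was called in either genotype. Ccl3 and Ccl4 lay above all 12 markers in both genotype comparisons, at 7.47 and 6.99 times the marker median under vehicle and 6.11 and 5.26 times under SD. Relative to the microglial marker Tyrobp, the level of Ccl3 per length was 2.61% and 3.05% in the WT libraries and 8.46% and 7.09% in the G93A libraries, and relative to Aif1 it was 8.29% and 9.53% in WT and 77.5% and 64.4% in G93A. Ccl17 moved the other way against both, at 13.1% and 28.1% of Tyrobp in WT and 0.223% and 1.26% in G93A. As a percentage of Tyrobp, Ccl5, Ccl6, Cxcl10 and Cxcl16 were also lower in G93A than in WT under both treatments. For Ccl6 the values were 12.4% and 11.5% in WT and 8.53% and 6.92% in G93A. Ccl2 and Ccl12 were lower under vehicle and higher under SD, and Ccl4 was higher under both. The outcome depended on the marker for several chemokines. Against Aif1, Ccl6 and Cxcl16 were higher in G93A under both treatments, Ccl6 at 39.5% and 35.8% in WT and 78.1% and 62.9% in G93A. Ccl9 lay between 12.6% and 15.6% of Aif1 in all 4 libraries but at 4.90% and 4.62% of Tyrobp in WT and 1.37% and 1.49% in G93A. Relative to Csf1r it was 2.12% and 1.76% in WT and 2.55% and 2.95% in G93A. Under vehicle 8 of the 12 markers had a larger fold than Ccl9, and under SD 7 did.

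**Figure D5:**
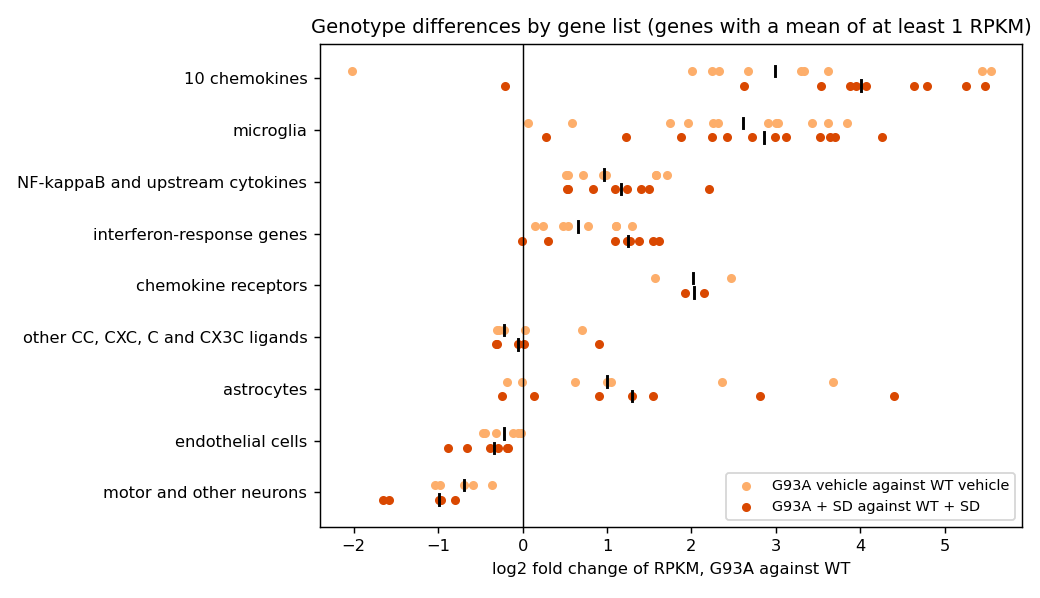
Log2 fold change between G93A and WT, under vehicle and under SD, for the genes of each list with a mean of at least 1 RPKM, with 1 point per gene and a bar at the median of each list. Genes low in WT can pass this filter through their G93A levels. The medians of the 10 chemokines are 2.99 and 4.01, and those of the 12 microglial markers are 2.61 and 2.86.

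Likeness of pattern across the 4 libraries was measured as the distance between log2 levels, after 0.1 RPKM was added and each gene's mean was removed. Among 12986 other names with a mean of at least 1 RPKM, 5 were nearest to Ccl6. They were Fcgr3, an Fc receptor of myeloid cells (distance 0.21), Slc15a3, a peptide and histidine transporter (0.23), Itgb2, a leukocyte integrin (0.24), AF251705 (0.25) and C1qa, a complement subunit (0.27). Ccl2 ranked 13th, Cxcl16 36th, Ccl4 361st, Ccl3 477th and Ccl17 12960th. The added 0.1 RPKM narrows differences between low levels, such as those of Ccl2 in WT, at 0.233 and 0.0973 RPKM. How far the rank of Ccl2 rests on it was not tested. These distances rest on 4 libraries each and are a description.

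Of the 16 chemokine receptors counted, 10 were called higher and 1 lower in each genotype comparison (Ccr3 under vehicle and Cxcr5 under SD), against 20.3% of all names called higher under vehicle and 23.2% under SD, but most were at trace level. Cxcr4 and Cx3cr1, which bind none of the 10 ligands, had a mean of at least 1 RPKM and were higher in both comparisons. Ccr1, the receptor of Ccl3, Ccl5, Ccl6 and Ccl9, was measured at 0.230 and 0.341 RPKM in WT and at 0.923 and 1.75 RPKM in G93A. Both G93A libraries stood above both WT libraries, and the highest level, in G93A + SD, was 1.90 times that in G93A vehicle. Ccr2, the receptor of Ccl2 and Ccl12, was at trace level, at 0.0151, 0.0602, 0.135 and 0.0750 RPKM, and was called higher under vehicle but not under SD. Cxcr3, the receptor of Cxcl10, was at 0.0169, 0, 0.0736 and 0.0473 RPKM and was called higher in both. Cxcr6, the receptor of Cxcl16, was at 0.0642, 0.0414, 0.132 and 0.233 RPKM. Cx3cr1, the fractalkine receptor of microglia, was at 14.1, 12.6, 41.7 and 47.9 RPKM, and Cxcr4, the receptor of Cxcl12, at 1.35, 1.87, 7.50 and 8.25 RPKM.

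Of the 5 atypical receptors, which bind chemokines without G protein signalling, 2 were called higher and 0 lower between genotypes under vehicle, and 2 higher and 2 lower (Ackr1 and Ackr2) under SD, where the shares of all names were 20.3% and 10.3% under vehicle and 23.2% and 12.5% under SD. Ackr3 was measured at 3.47, 3.94, 5.37 and 7.46 RPKM, and Ccrl2 at 0.482, 0.441, 1.13 and 1.09 RPKM. Ackr1, which binds many CC and CXC chemokines on venules and red cells, was at 20.4, 12.99, 23.8 and 8.64 RPKM. It was lower with SD in both genotypes, 1.57-fold in WT and 2.76-fold in G93A.

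Most other chemokine ligands were at trace level. Of 24 measured, 13 were called higher and 3 lower under vehicle, and 15 and 3 under SD, the 3 being the near-identical copies Ccl21a, Ccl21b and Ccl21c in both, and 19 of the 24 had means below 1 RPKM. Among all names 20.3% were higher and 10.3% lower under vehicle, and 23.2% and 12.5% under SD. Of the 5 above it, Cxcl14, Cx3cl1, Cxcl12, Ccl25 and Ccl27a, only Cxcl14 was called, at 25.6, 25.7, 41.9 and 48.3 RPKM. Cx3cl1, the fractalkine of neurons, was at 51.9, 50.6, 42.7 and 40.9 RPKM and was not called. Ccl7, an MCP beside Ccl2, reached 1.11 RPKM in G93A + SD from 0.361 in G93A vehicle. Cxcl1, a neutrophil chemokine, was listed at 0 in WT vehicle and was measured at 0.0828 RPKM in WT + SD and at 1.24 and 0.527 RPKM in G93A.

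Of 11 NF-kappaB genes and cytokines measured, 9 were called higher and 0 lower in each genotype comparison, beside the 20.3% and 23.2% of all names called higher, and none was called with SD in G93A. With SD in WT 1 was called higher, Il1b, and 1 lower, Tnf, against 7.18% and 8.55% of all names. In WT vehicle and WT + SD, Il1b rested on an estimated 1.53 and 4.22 read pairs and Tnf on 4.56 and 1.52. Tnf was measured at 0.0755, 0.0242, 0.429 and 0.350 RPKM, Il1b at 0.0307, 0.0812, 1.402 and 1.14, and the NF-kappaB subunit Nfkb2 at 0.857, 1.03, 2.80 and 2.91. Of 10 interferon-response genes 4 were called higher under vehicle and 8 under SD, and 0 were lower in either. In WT + SD against WT vehicle 5 of these 10, Irf7, Ifit1, Ifit3, Usp18 and Rsad2, were called lower, as was Cxcl10, against 8.55% of all names, and none was called in G93A + SD against G93A vehicle. Ifit3 was measured at 8.10, 4.41, 11.3 and 13.5 RPKM, with its lowest level in WT + SD, as for Cxcl10.

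The genes lie in few places. Ccl2 and Ccl12 lie on chromosome 11 together with Ccl7, Ccl8 and Ccl11, and Ccl5, Ccl9, Ccl6, Ccl3 and Ccl4 lie further along chromosome 11 within one stretch. Within 100 kb of that second stretch 6 other names were measured, of which 2 were called higher in G93A vehicle, Mmp28 at 1.51-fold and E230016K23Rik, which overlaps Ccl6 and stayed at or below 0.0287 RPKM. Under SD 0 of the 6 were higher and 1, E230016K23Rik, was lower. For these neighbours the shares of all names are again 20.3% higher and 10.3% lower under vehicle, and 23.2% and 12.5% under SD. Around Ccl17 the 5 other non-chemokine names included 1 called higher, Ccdc102a, and none called lower, under both treatments. Around Cxcl10 none of 6 was called higher and 1 lower under vehicle, and 1 higher and 1 lower under SD. Around Cxcl16 6 of 9 were called higher under vehicle, and 4 higher and 2 lower under SD. Of these Tm4sf5, Vmo1 and Gltpd2 were at trace level, and Zmynd15, Med11 and Pld2 were higher in both.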

How the data were processed

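RNA of lumbar spinal cord was sequenced in 4 libraries, 1 per condition, grouped by the sample labels. The authors aligned reads with STAR to GRCm38 (mm10) and describe HTSeq counting on Ensembl genes, whereas the deposited table lists RefSeq transcripts. Its values were taken as RPKM deposited by the authors, a unit inferred from the values. The design had also allowed for counts. Ratio columns of the authors, which hold their comparisons, were not used. Rows of a name were averaged. A call was a difference of at least 1.5-fold, without pseudocount or filter, and a gene at 0 in only 1 of 2 libraries was called. The distance between patterns used a pseudocount of 0.1 RPKM. Read pairs were estimated from the step of low values and GENCODE M21 lengths, which matched 23026 rows, so no interval is given. Positions are from GENCODE M21 on GRCm38. Named genes are the 10 members, at most 6 of each pathway list (the highest means among genes called between genotypes), the receptors Ccr1, Ccr2, Cxcr3, Cxcr6 and Cx3cr1, Cx3cl1, Cxcl12, at most 4 of each marker list and the 5 names nearest to the member with the highest mean. Tnf, Il1b, Usp18, Rsad2, Adam10, Aif1, Tyrobp, Xcr1, Ccr3, Cxcr5, the Ccl21 copies, Ccl25, Ccl27a and genes overlapping or beside a member fall outside this rule and were picked with their values known. An item withheld from this text was left out of the lists and is not reported here. The members and lists were chosen with earlier results of these data known. On simulated libraries with counting error only, 199 of 200 names changed 2-fold were recovered and 0 of 11116 unchanged names were called, all with at least 200 expected read pairs, which no WT value of the members reaches. Another scaling, row choice, pseudocounts, thresholds and filters were tried. Work was done in Python 3.11.15 with pandas 2.3.3 and numpy 2.4.6, and figures were drawn with matplotlib 3.10.9.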

Additional observations from a re-analysis of the deposited data

Results flagged for a closer look

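Cxcl10 differed with SD in opposite directions in the 2 genotypes. Its log2 fold change was -0.92 with SD in WT and 0.78 with SD in G93A. The difference between the genotypes was not tested, since each condition has 1 library. Of all names, 2.3% were called lower in WT + SD and higher in G93A + SD.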

How the results depend on the processing

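No paired analysis was possible because each condition has 1 library and the labels carry no replicate numbers, and for the same reason no replicate could be left out. Of 72 recomputed counts of the 10 chemokines, 67 stayed within 1.5 times their value and 5 fell below it. With a threshold of 2-fold, the number called higher in G93A + SD against G93A vehicle fell from 2 to 1, and that in WT + SD against WT vehicle from 1 to 0. With a pseudocount of 1 RPKM the counts for WT + SD against WT vehicle were 0 higher and 0 lower, from 1 and 4. Where at least 20 estimated read pairs were required in the higher library, a filter chosen after seeing the data, 1 was lower in WT + SD. Of 200 log2 fold changes of single chemokines, 28 moved, 25 of them with the pseudocount of 1 RPKM, which understates low genes, and 0 changed direction. With it the 9 chemokines higher in G93A vehicle had log2 fold changes of 0.98 to 3.35. Of 64 counts of other ligands and receptors, 25 fell by over 1.5 times: with a pseudocount of 1 RPKM the other ligands higher in G93A vehicle fell from 13 to 2 and the receptors from 10 to 3, and with 0.1 RPKM the receptors higher in G93A + SD than in WT + SD from 10 to 5. Depth limits the WT values: 11 of the 20 rested on fewer than 20 estimated read pairs.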

Other observations

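Markers of other cells in the tissue were listed beside the chemokines. Among all names 20.3% were called higher and 10.3% lower between genotypes under vehicle, and 23.2% and 12.5% under SD. Of 7 markers of blood monocytes and border macrophages, 2 were called higher and 1 lower under vehicle and 3 higher and 1 lower under SD, and their sum was 1.01 and 1.09 RPKM in WT and 6.81 and 9.13 RPKM in G93A, of which Ms4a7 made up 0.0303, 0.0705, 5.67 and 7.52 RPKM. The 8 T cell markers summed to 0.281, 0.639, 0.780 and 1.02 RPKM, and the 6 neutrophil markers to 1.12, 0.840, 2.50 and 0.899 RPKM, in WT and then G93A, vehicle before SD. Of these T cell markers 7 were called higher under vehicle and 6 under SD, and 0 were called lower. Of these neutrophil markers 4 were called higher and 0 lower under vehicle, and 2 higher and 2 lower under SD. Each marker of these 2 lists had a mean below 1 RPKM. Of 7 astrocyte markers 5 were called higher in both genotype comparisons, of 6 endothelial markers 0 were called under vehicle and 2 lower under SD, and of 7 neuronal markers 5 were lower under vehicle and 6 under SD.

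Of 6 proteases that cut chemokines, 2 were called higher (Adam17 and Mmp12) and 1 lower (Mmp9) under vehicle. Under SD 4 were called higher (these 2, Mmp2 and Dpp4) and 1 lower (Mmp9). The shares of all names were 20.3% higher and 10.3% lower under vehicle, and 23.2% and 12.5% under SD. Dpp4 was at trace level, with a mean of 0.118 RPKM. With SD in G93A Mmp2 was called higher and Mmp9 and Mmp12 lower, against 8.71% and 7.31% of all names. Mmp9, a gelatinase, was at 2.61, 2.26, 1.30 and 0.667 RPKM. Mmp12, the macrophage elastase, was listed at 0 in WT vehicle and was measured at 0.154 RPKM in WT + SD and at 3.94 and 1.55 RPKM in G93A. Adam10, which releases Cxcl16, was at 22.7, 24.5, 30.6 and 34.9 RPKM and was not called in any comparison.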
